A study of Mus musculus with 33 samples.

Results

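The genes described here are 10 members of the Notch pathway, taken by gene name from the 38899 genes that stand in all 4 deposited tables: the ligands Dll1, Dll4, Jag1 and Jag2, the receptors Notch1 and Notch4, and the targets Hey1, Heyl, Hes1 and Nrarp. Their RNA was measured by RNA sequencing in 33 libraries of C57BL/6 mouse bone marrow, 3 in each of 11 groups, from animals of 8 to 12 weeks of age. The values are FPKM, which are fragments scaled by gene length and by a divisor for each library. The divisor was not the number of reads recovered from the FPKM. It was 2.29 M in LSK replicate 1, with 1.55 M reads, and 4.34 M in BMC replicate 1, with 5.11 M reads. Summed FPKM ran from 266764 in LSK replicate 2 to 634649 in BMC replicate 1. Levels can thus be set side by side between genes of a library, while differences between libraries depend on the scaling. Every group was analysed only as far as the labels describe it, and the 3 libraries of a group are not stated to come from separate animals, so the spread between them may be partly technical.

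The first table held 5 groups from femur and tibia. Irradiated bone EC and bone EC (EC, endothelial cells) were sorted as GFP+ from Cdh5-mTnG animals, whose reporter is named for the endothelial cadherin gene Cdh5. The irradiated animals had received 9 Gy, at a time before sorting that the labels do not give, and the others were untreated. LSK were Lin- Sca1+ cKit+ cells, the marrow fraction that holds blood stem cells, Lin- were lineage-negative cells and BMC were whole marrow, all 3 from untreated wildtype mice. The second table held Vav1 DTX EC and Vav1 control EC, both GFP+ cells of femur and tibia labelled Vav1-Cre R26-DTR Cdh5-mTnG and diphtheria toxin, so only their names tell them apart. Titles name them DTX and ctrl and the data columns Vav1-Cre and Vav1-Cont, so the names differ on whether toxin or Cre sets them apart. Vav1-Cre acts in blood-forming cells, R26-DTR gives the cells in which Cre acted the receptor for diphtheria toxin, and Vav1-driven Cre is known to act in part of the endothelium as well. The third table held Apln+ EC, GFP+ cells of tamoxifen-treated Apln-CreERT2 R26-mTmG mice, and diaphysis EC, GFP+ cells from the femur shaft of untreated Cdh5-mTnG mice. The fourth held 9Gy1D EC, from Cdh5-mTnG mice after 9 Gy, and Esm1+ EC, from tamoxifen-treated Esm1-CreER R26-mTmG mice, both labelled Tomato+/GFP+. In R26-mTmG mice the GFP stays on in the descendants of cells in which Cre once acted, so these sorts follow the past use of Apln or Esm1, genes of vessel tip cells, and not their present RNA. In the last 2 tables the groups compared therefore differ in mouse line and in tamoxifen as well as in what they are named for, and in the last one in irradiation too.

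Notch receptors are bound by ligands on a neighbouring cell, are cut within the membrane and release a part that enters the nucleus and joins the DNA-binding protein RBPJ. Targets switched on in this way include the repressors Hes1, Hey1 and Heyl and the small feedback protein Nrarp, which limits the signal. In blood vessels Dll4 and Notch1 hold back sprouting and favour arterial fate, Jag1 acts against Dll4 in sprouting, and Notch4 is a receptor found mainly in endothelium. In marrow, endothelial ligands are known from mouse work to act on blood-forming cells, which carry Notch1 and Notch2 and use Hes1.

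On GRCm38 (GENCODE vM21 annotation), the ligand genes lie at chr17:15367354-15376872 on the minus strand for Dll1, chr2:119325784-119335962 on the plus strand for Dll4, chr2:137081456-137116644 on the minus strand for Jag1 and chr12:112907819-112929776 on the minus strand for Jag2. The receptor genes lie at chr2:26457903-26516663 on the minus strand for Notch1 and chr17:34564268-34588503 on the plus strand for Notch4. The target genes lie at chr3:8663359-8667256 on the minus strand for Hey1, chr4:123233556-123249875 on the plus strand for Heyl, chr16:30064384-30067796 on the plus strand for Hes1 and chr2:25180758-25183339 on the plus strand for Nrarp. All 10 are protein-coding and the values cover their exons. Exons of Dll1, Dll4, Notch1 and Nrarp overlap exons of noncoding or little described genes on the other strand (A930024N18Rik, Gm14207, 0610009E02Rik and Gm13568, and Gm38287), and since the strand setting of the counting is not given in the sources used here, reads of these pairs cannot be told apart.

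Promoter sequences of 7 of the 10 genes are in the RefSeq table for GRCm38.p6, in 8 windows, and those of Dll4, Nrarp and Notch4 are shown because the ligand, the target and the receptor that the results turn on most start there; Hey1, Heyl and Hes1 have no entry. Each run is read 5′ to 3′ on the plus strand, on which all 3 genes lie, covers up to 250 bases and ends at the base before the annotated start, and capitals mark a matched motif. The windows are chr2:119325534-119325783 for Dll4, chr2:25180508-25180757 for Nrarp and chr17:34564045-34564267 for Notch4.
Dll4: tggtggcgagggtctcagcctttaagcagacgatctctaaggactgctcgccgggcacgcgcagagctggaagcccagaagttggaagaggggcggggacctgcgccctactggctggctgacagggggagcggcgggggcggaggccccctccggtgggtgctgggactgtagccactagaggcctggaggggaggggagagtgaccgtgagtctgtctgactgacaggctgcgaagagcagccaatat
Nrarp: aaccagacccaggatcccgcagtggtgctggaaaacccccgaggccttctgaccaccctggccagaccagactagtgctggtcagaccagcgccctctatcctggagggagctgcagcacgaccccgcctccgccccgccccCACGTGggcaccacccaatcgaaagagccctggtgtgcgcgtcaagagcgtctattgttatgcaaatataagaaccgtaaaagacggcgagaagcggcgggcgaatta
Notch4: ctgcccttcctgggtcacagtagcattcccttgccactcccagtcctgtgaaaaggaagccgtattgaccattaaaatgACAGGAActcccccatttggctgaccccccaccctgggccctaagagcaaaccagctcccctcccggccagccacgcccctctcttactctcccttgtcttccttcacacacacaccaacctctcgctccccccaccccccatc
The motifs searched on both strands were TGGGAA (core of the RBPJ site), GTGGGAA (its longer form, which contains the core), CACGTG (E-box), ACAGGAA (ETS) and the interferon-stimulated response element, with no overlap between motifs other than the RBPJ pair. The E-box begins 108 bases before the start of Nrarp and the ETS motif 171 bases before the RefSeq start of Notch4, and no other match was found in the 8 windows. The search used the 250 bases before each RefSeq start, also for Notch4, whose printed run stops earlier, at another annotated start. Among 32851 promoter windows of 250 bases in the table, 21.6% hold the RBPJ core, 5.42% its longer form, 6.02% the E-box, 7.2% the ETS motif and 2.98% the interferon-stimulated element. A match is only a match of letters, and the absence of one says that these letters are not in this window.

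The depth recovered from the steps in the FPKM was 1.55 to 1.87 M reads in LSK, 2.72 to 3.68 M reads in bone EC and irradiated bone EC and 5.1 to 12.3 M reads in the other 8 groups. The 18 pan-endothelial marker genes summed to 608 to 4220 FPKM in the 24 endothelial libraries, against 51.3 to 122 FPKM in LSK, Lin- and BMC, and Cldn5, Ramp2 and Clec14a were at 0 in all BMC libraries. Endothelial genes were thus enriched in every endothelial group, but the libraries were not free of blood cell RNA. The 16 neutrophil genes made up 0.285% to 1.13% of all FPKM in irradiated bone EC and 10.3% to 11.3% in bone EC. They made up 7.45% to 23.7% in the 6 other endothelial groups. Whole marrow (BMC) held 14.6% to 18.1%, and Vav1 control EC, at 16.2% to 17.0%, and Esm1+ EC, at 16.8% to 18.4%, held about as much. In bulk RNA, fewer cells of a type and less RNA per cell cannot be told apart. LSK were highest in 15 stem and progenitor genes, at 860 to 936 FPKM, where Lin- held 305 to 395 and BMC 148 to 155 FPKM. Of the 15 genes, 12 were called higher and 2 lower in LSK than in Lin-. The list is not particular to LSK, since it summed to 732 and 707 FPKM in Apln+ replicates 2 and 3. Lin- also held 865 to 2166 FPKM of mesenchymal stromal, 842 to 2813 of osteoblast and 783 to 1346 of megakaryocyte genes, so its values are not those of blood progenitors alone. Some libraries stood apart from their group. Apln+ replicate 1 had 812 FPKM of pan-endothelial genes, where its other replicates had 3054 and 3227, and 23.7% of neutrophil genes. Vav1 DTX replicate 2 had 2810 FPKM of pan-endothelial genes beside 1099 and 1214, Esm1+ replicate 3 had 608 beside 1161 and 1155, and Lin- replicate 3 had 12.6% of erythroid genes beside 0.338% and 0.346%. Esm1+ replicates 1 and 2 differed by a chi-square of 1.39 per gene, where the other 32 pairs of replicates gave 3.13 to 182, and results were also computed with these replicates averaged.

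**Figure D1:**
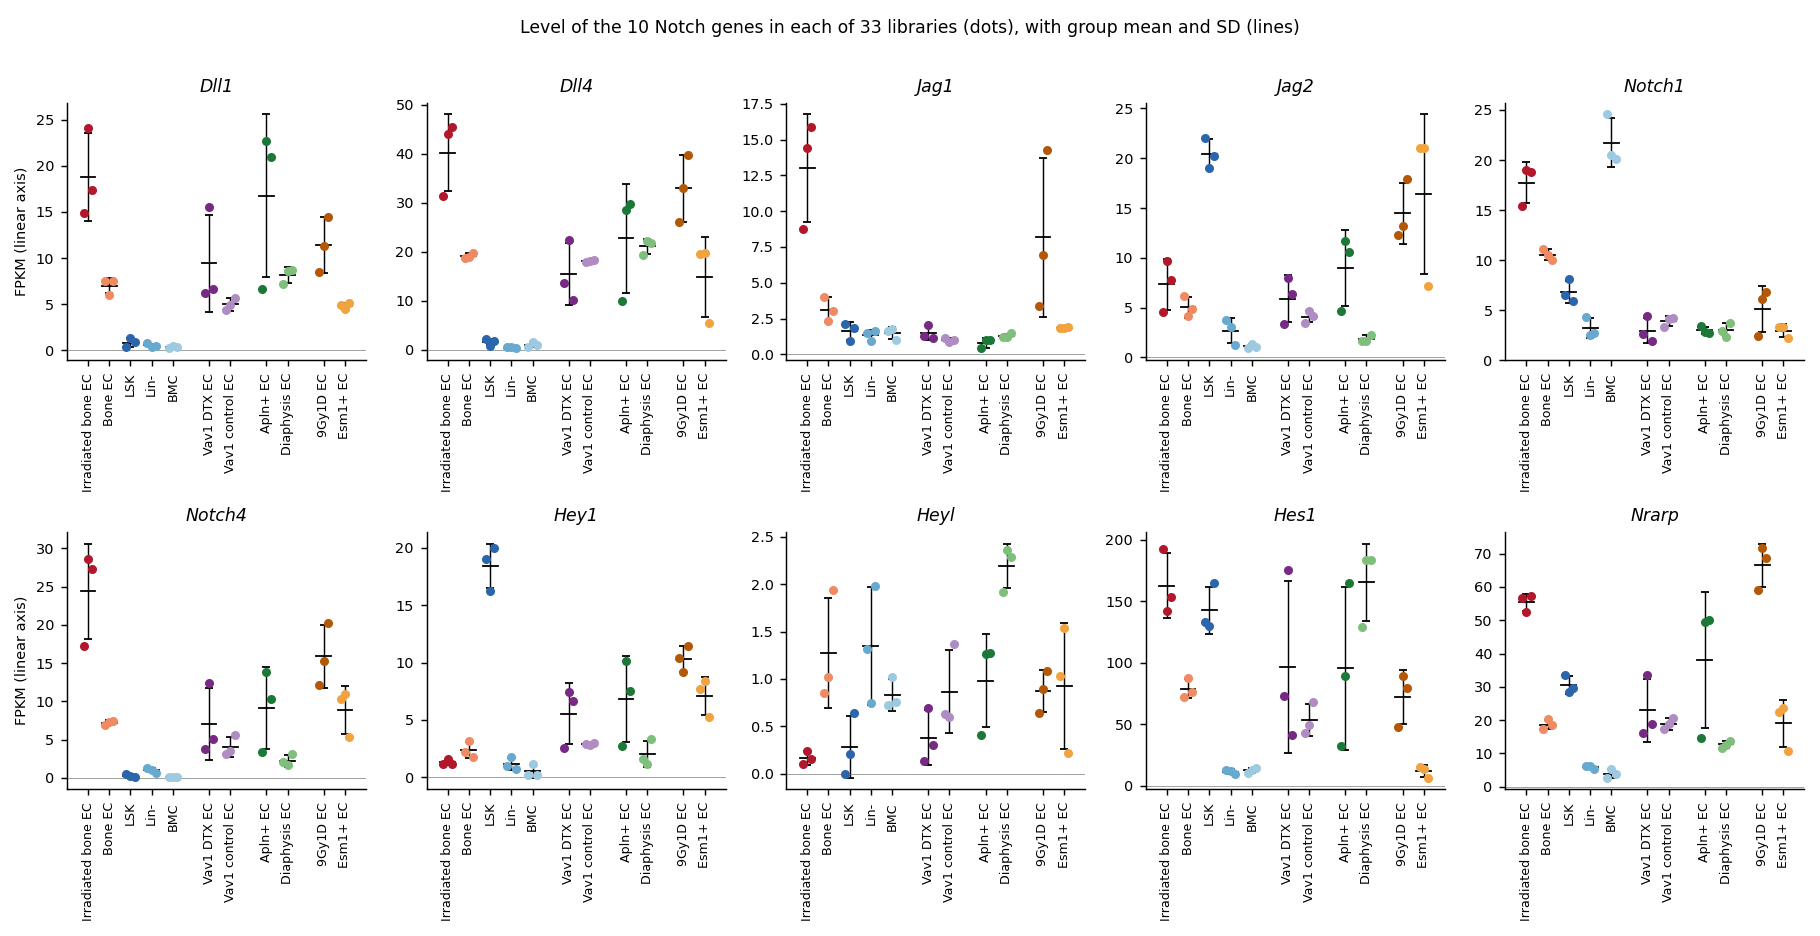
FPKM of each of the 10 genes (vertical axis, linear, a scale of its own per gene) in the 33 libraries (dots), with the mean and SD of each group (lines, n = 3); gaps on the horizontal axis part the 4 tables. Dll1, Dll4 and Notch4 are above LSK, Lin- and BMC in every endothelial group, Hey1 is highest in LSK and Notch1 in BMC.

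Across the 11 groups the 10 genes fell into different patterns, and levels set across tables are a description only, since each table was normalized on its own. Dll4, the endothelial ligand of arterial and sprouting vessels, was the most abundant ligand by FPKM in all endothelial groups but Esm1+ EC, with means of 14.9 to 40.3 FPKM in endothelium and 0.463 to 1.57 FPKM in LSK, Lin- and BMC. Dll1, a second Delta ligand, had means of 4.85 to 18.8 FPKM in endothelium and 0.352 to 0.825 FPKM in LSK, Lin- and BMC. No endothelial library overlapped a library of LSK, Lin- or BMC for either gene. In the order of means, 8 of the 10 neighbouring pairs overlapped for Dll1 and 7 for Dll4, so the ranks within endothelium are loose, and for both genes the step between Esm1+ EC, the lowest endothelial group, and LSK was one of the few without overlap.

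Jag1 was low in most groups, 0.807 to 3.12 FPKM outside the irradiated samples, and reached 13.0 ± 3.76 FPKM in irradiated bone EC and 8.19 ± 5.56 FPKM in 9Gy1D EC (SD, n = 3 each). Jag2 was highest in LSK with 20.5 ± 1.52 FPKM, followed by Esm1+ EC with 16.4 ± 8.01 and 9Gy1D EC with 14.5 ± 3.05 FPKM, 3 groups whose ranges overlap from one to the next, and was lowest in BMC with 1.10 ± 0.211 and in diaphysis EC with 1.87 ± 0.350 FPKM. Of the receptors, Notch1 was highest in BMC with 21.8 ± 2.47 FPKM, then in irradiated bone EC with 17.7 ± 2.02, bone EC with 10.6 ± 0.546 and LSK with 6.86 ± 1.09 FPKM, and these 4 groups did not overlap one another. The other 7 groups lay at 2.93 to 5.12 FPKM and overlapped. Notch4 had means of 2.25 to 24.4 FPKM in the endothelial groups, against 1.02 ± 0.301 FPKM in Lin-, 0.239 ± 0.224 in LSK and 0.0705 ± 0.0158 in BMC, the last resting on 2 to 3 reads per library.

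Among the targets, Hes1 was the most abundant gene of the 10 in 9 groups and reached 166 ± 31.4 FPKM in diaphysis EC, 163 ± 26.5 in irradiated bone EC and 142 ± 19.4 in LSK. It was lowest in BMC, Esm1+ EC and Lin-, at 11.2 to 12.3 FPKM, and 9 of its 10 neighbouring pairs overlapped. Nrarp, which is induced by Notch and limits it, was highest in 9Gy1D EC with 66.5 ± 6.56 FPKM and in irradiated bone EC with 55.4 ± 2.55 FPKM, which did not overlap, and lowest in Lin- and BMC. Hey1 was highest in LSK with 18.4 ± 1.96 FPKM, above 9Gy1D EC with 10.3 ± 1.12 FPKM without overlap, and lay below 3 FPKM in 6 groups. Heyl was low everywhere, with a highest mean of 2.193 ± 0.237 FPKM in diaphysis EC and a lowest of 0.165 ± 0.0722 FPKM in irradiated bone EC, and in LSK replicate 1 it was at 0, which at that depth allows up to 0.256 FPKM (3 reads, counting error only).

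The question of the first comparison was what a dose of 9 Gy does to marrow endothelium. As deposited, the ligands Dll1, Dll4 and Jag1, both receptors and the targets Hes1 and Nrarp were higher in irradiated bone EC, with Jag1 up by the largest factor, while Hey1 and Heyl had lower values. Scaled to pan-endothelial genes, Jag1 and Notch4 kept a call as higher, Hey1 gained one as lower, and Dll4, Hes1 and Notch1 turned below 0. On that scale 9082 of all 13044 genes tested were called lower and 424 higher. The ratio of Jag1 to the pan-endothelial genes still overlapped between the groups. It was 0.0677 to 0.101 in irradiated bone EC and 0.03745 to 0.0702 in bone EC. Of the 10 genes, 9 passed the filter of 1 FPKM in at least 3 of the 6 libraries, and 7 of them were called higher (limma on log2(FPKM + 1), Benjamini-Hochberg adjusted p below 0.05 over all genes tested), where 41.9% of all 13044 genes tested were called, 22.5% higher and 19.4% lower. The median over all genes tested was 0.06 on the log2 scale; 8 of the 9 did not overlap between the groups, where 54.2% of all genes tested did not.

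Dll4 had 31.3, 44.0 and 45.5 FPKM in irradiated bone EC, against 18.7, 19.0 and 19.8 FPKM in bone EC. Dll1 had 14.9, 24.1 and 17.3 FPKM in irradiated bone EC and 7.52, 6.04 and 7.51 FPKM in bone EC. Jag1 had 8.76, 14.4 and 15.8 FPKM in irradiated bone EC, against 4.03, 2.30 and 3.03 FPKM in bone EC. For all 3 ligands the lowest irradiated library lay above the highest untreated one. On the log2 scale Dll4 differed by 1.02 ± 0.17 (SE), with an adjusted p of 0.0029, and its mean was 2.103 times that of bone EC. Dll1 differed by 1.28 ± 0.2 (SE), with an adjusted p of 0.0022, a mean 2.67 times that of bone EC. Jag1 differed by 1.75 ± 0.26 (SE), with an adjusted p of 0.0018, a mean 4.17 times that of bone EC. The factor of Jag1 was thus the largest of the 3. Jag2 had 4.55, 9.65 and 7.81 FPKM in irradiated bone EC and 6.20, 4.11 and 4.83 FPKM in bone EC, which overlap, and its difference of 0.43 ± 0.26 (SE), with an adjusted p of 0.24, did not pass; without irradiated bone EC replicate 1 it was 0.69 (adjusted p = 0.027).

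Both receptors were higher as deposited. Notch4 had 17.2, 28.6 and 27.3 FPKM in irradiated bone EC, against 6.85, 7.30 and 7.45 FPKM in bone EC. Its mean was 3.39 times as high and Notch4 differed by 1.6 ± 0.2 (SE), with an adjusted p of 0.001. Notch1 had 15.4, 19.0 and 18.8 FPKM in irradiated bone EC and 11.1, 10.5 and 10.03 FPKM in bone EC, 1.68 times as high, with a log2 difference of 0.69 ± 0.14 (SE), with an adjusted p of 0.0063. Neither receptor overlapped between the groups, and Notch4 passed Notch1: it made up 57.4% ± 3.98 of the FPKM of both in irradiated bone EC, against 40.6% ± 2.28 in bone EC (SD, n = 3 each). Notch2, a receptor of myeloid and B cells among others and not one of the 10, went the other way, with 2.35 ± 0.251 FPKM in irradiated bone EC and 8.25 ± 2.25 FPKM in bone EC, a log2 difference of -1.44 (adjusted p = 0.0013).

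The targets split. Nrarp had 56.6, 52.5 and 57.2 FPKM in irradiated bone EC, against 17.3, 20.2 and 18.5 FPKM in bone EC. Nrarp differed by 1.52 ± 0.12 (SE), with an adjusted p of 0.00028, the smallest p of the 10 genes here. Hes1 had 193, 142 and 153 FPKM in irradiated bone EC, against 72.2, 87.3 and 76.4 FPKM in bone EC. Hes1 differed by 1.03 ± 0.16 (SE), with an adjusted p of 0.0024. Both stood apart between the groups. Hey1 had 1.16, 1.55 and 1.178 FPKM in irradiated bone EC and 2.23, 3.12 and 1.75 FPKM in bone EC, 10 to 21 reads per library, and its difference of -0.54 ± 0.19 (SE), with an adjusted p of 0.062, did not pass although the groups did not overlap; with median-of-ratios scaling it was -0.58 (adjusted p = 0.048). Heyl, below the filter, had 0.1003, 0.243 and 0.152 FPKM in irradiated bone EC and 0.855, 1.02 and 1.94 FPKM in bone EC, on 2 to 4 reads per library in irradiated bone EC and 16 to 36 in bone EC, and a fit without the filter gave -0.94 (adjusted p = 0.017). Hes1 was thus higher while Hey1 had a difference of the opposite sign, and the ratio of Hey1 to Hes1 FPKM was 0.00821 ± 0.00248 in irradiated bone EC and 0.0299 ± 0.00646 in bone EC, without overlap.

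Other cell types moved with these values. The 16 neutrophil genes, all 16 called lower, summed to 1040 to 4611 FPKM in irradiated bone EC and 48480 to 48900 FPKM in bone EC, 12 of 13 erythroid genes were lower, and 16 of 18 pan-endothelial genes were higher, with sums of 3326 to 4220 FPKM in irradiated bone EC and 1272 to 1671 FPKM in bone EC. Of 7 tested sinusoidal genes all 7 were higher, and of 13 arterial genes 5 were higher and 1 lower. Of 7 tested mural genes 3 were higher and 1 lower, with sums of 430 to 649 FPKM in irradiated bone EC and 144 to 211 FPKM in bone EC. The part of these cell types in the result was not tested. With every library scaled to its pan-endothelial genes, which moved the median of all genes by -0.98, 3 of the 10 were called: Jag1 at 0.74 (adjusted p = 0.028) and Notch4 at 0.5 (adjusted p = 0.041) higher, and Hey1 at -1.28 (adjusted p = 0.0018) lower. Of all 13044 genes tested, 9506 were called on this scale, 424 higher and 9082 lower. On that scale Nrarp stood at 0.37 and Dll1 at 0.19, not called, and Dll4 at -0.13, Hes1 at -0.15, Notch1 at -0.42 and Jag2 at -0.59 turned below 0, where the median of all genes was -0.92. Of all called genes 53.8% were higher as deposited, 68.0% as TPM, which moved the median by 0.24, and 4.5% after the pan-endothelial scaling.

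**Figure D2:**
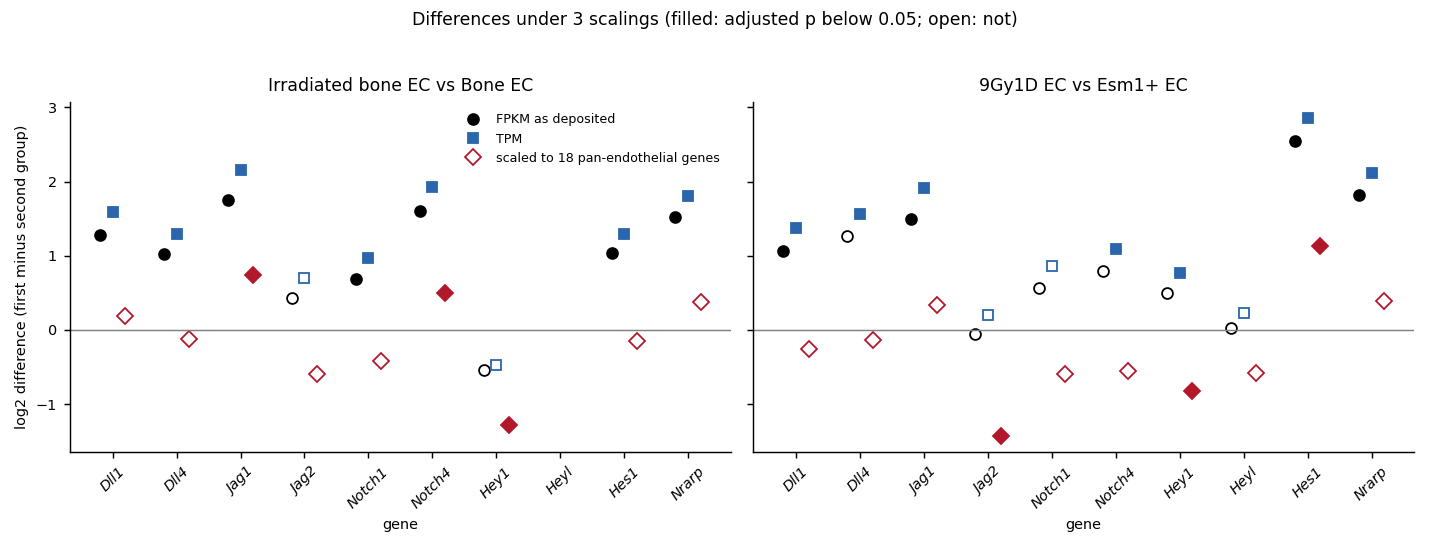
Log2 difference of each gene (vertical axis) for irradiated bone EC minus bone EC (left) and 9Gy1D EC minus Esm1+ EC (right) as deposited (circles), as TPM (squares) and with each library scaled to 18 pan-endothelial genes (diamonds); filled symbols have an adjusted p below 0.05 (limma, n = 3 each), and Heyl is missing on the left, below the filter. The diamonds lie lowest for every gene: Jag1 and Notch4 stay above 0 and called on the left and Hes1 on the right, while Dll4 lies at -0.13 on the left and -0.14 on the right.

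Of 41 other Notch pathway genes, 32 were tested and 12 called, 9 higher and 3 lower. Those with the largest differences were Notch2, Lfng, a glycosyltransferase that modifies Notch receptors, with 61.7 ± 17.5 FPKM in irradiated bone EC and 25.7 ± 0.318 FPKM in bone EC and a difference of 1.2 (adjusted p = 0.003), Ncstn, a subunit of the gamma-secretase that cuts the receptor, at 1.16 (adjusted p = 0.002), and Egfl7, a secreted endothelial protein that binds Notch, at 1.11 (adjusted p = 0.0023). Their share called, 37.5%, lay near the 41.9% of all genes.

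**Figure D3:**
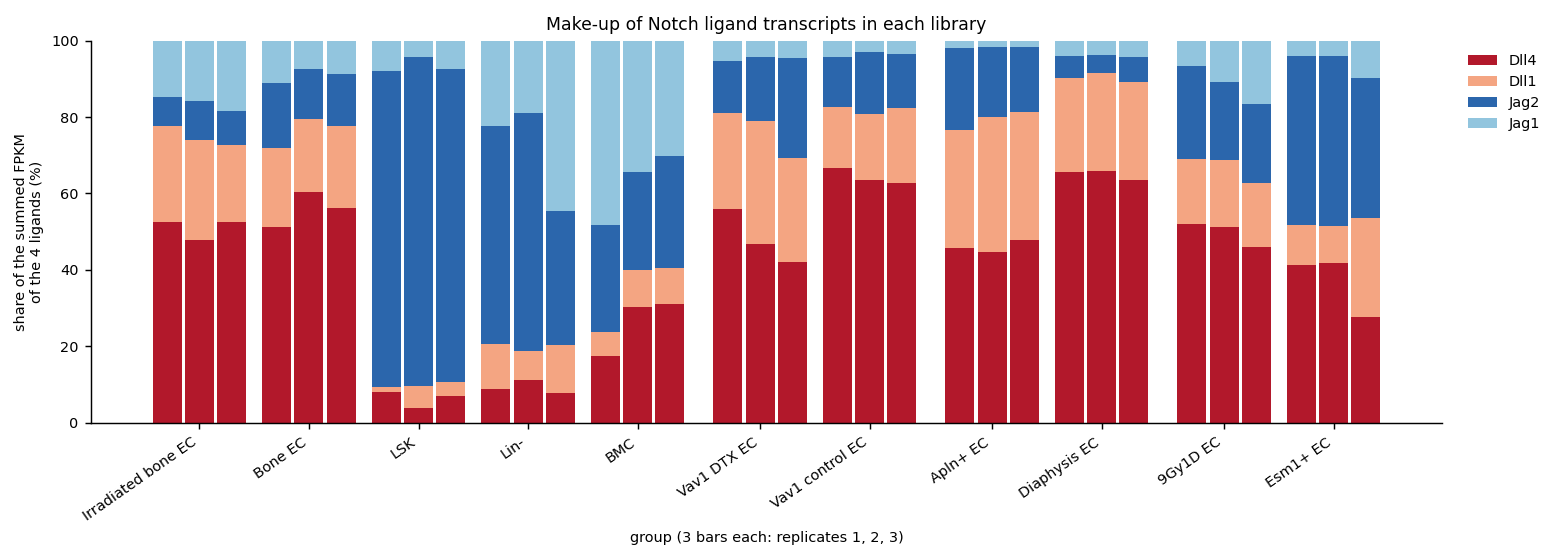
Share of each ligand in the summed FPKM of Dll4, Dll1, Jag2 and Jag1 (vertical axis, percent) in each of the 33 libraries (bars, 3 per group in replicate order). Dll4 is the largest share in 7 of 8 endothelial groups by mean, while Jag2 makes up 82.0% to 86.2% in LSK and 36.5% to 44.6% in Esm1+ EC.

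The ligand make-up within a library does not depend on the normalization of its table and is given here for all groups as a description. The 4 ligands summed to 79.4 ± 17.5 FPKM in irradiated bone EC and 34.3 ± 2.56 in bone EC, against 24.5 ± 2.26 in LSK, 5.002 ± 1.44 in Lin- and 4.03 ± 1.06 in BMC. In bone EC 56.0% ± 4.59 of this sum was Dll4, and in LSK 83.7% ± 2.2 was Jag2. Ligand RNA was thus mostly of the Delta class in bone EC and mostly Jag2 in LSK. Jag1 made up 16.2% ± 1.88 of the ligand FPKM in irradiated bone EC and 9.00% ± 1.91 in bone EC, without overlap, and Jag2 9.05% ± 1.4 in irradiated bone EC and 14.6% ± 2.12 in bone EC, without overlap in the other direction. The ratio of Dll4 to Jag1 FPKM was 2.87 to 3.57 in irradiated bone EC and 4.63 to 8.27 in bone EC. It was 9.26 to 10.9 in Vav1 DTX EC and 15.4 to 21.0 in Vav1 control EC, and 24.3 to 29.98 in Apln+ EC and 14.9 to 18.2 in diaphysis EC. In these 3 pairs the ranges did not overlap, lower in the irradiated and DTX groups and higher in Apln+ EC. The ratio of 2.79 to 7.78 in 9Gy1D EC overlapped with that of 2.80 to 10.7 in Esm1+ EC. Jag1 averaged 1.49 FPKM in BMC, and the part of blood cell RNA in these ratios was not tested.

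Bone EC were next set against LSK, which asks how the endothelial wall and the stem cell fraction of the same marrow divide the pathway. Dll1, Dll4, Jag1, Notch1 and Notch4 were higher in bone EC and Jag2, Hey1, Hes1 and Nrarp were lower, so all 9 genes that passed the filter were called, 5 higher and 4 lower, where 60.1% of 14321 genes tested were called, 29.5% higher and 30.6% lower. None of the 9 overlapped between the groups, which held for 66.5% of all genes tested. Notch4 was below 1 FPKM in every LSK library, so it passed the filter through bone EC alone and could not overlap. Jag2 had 6.20, 4.11 and 4.83 FPKM in bone EC, against 22.1, 19.1 and 20.2 FPKM in LSK. Jag2 differed by -1.84 ± 0.16 (SE), with an adjusted p of 3.6e-05. Dll4 had 18.7, 19.0 and 19.8 FPKM in bone EC, against 2.15, 0.844 and 1.71 FPKM in LSK. Dll4 differed by 3.01 ± 0.21 (SE), with an adjusted p of 1.1e-05. Dll4 and Jag2 were thus divided between the populations. Dll1 differed by 2.17 (adjusted p = 0.00012), with 0.310, 1.28 and 0.879 FPKM in LSK. Jag1 averaged 3.12 ± 0.871 FPKM in bone EC and 1.62 ± 0.613 FPKM in LSK, and its difference of 0.66 (adjusted p = 0.046) lost its call without LSK replicate 2 or 3 or bone EC replicate 1 or 3, where it was 0.45 to 0.73, and as TPM, at 0.24.

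Notch4 had 6.85, 7.30 and 7.45 FPKM in bone EC, against 0.487, 0.179 and 0.0511 FPKM in LSK on 1 to 9 reads, a difference of 2.74 ± 0.18 (SE), with an adjusted p of 9.6e-06 on the log2(FPKM + 1) scale, which understates changes of low genes. Notch1 had 11.1, 10.5 and 10.03 FPKM in bone EC and 6.53, 8.07 and 5.96 FPKM in LSK, and its difference of 0.56 (adjusted p = 0.01) turned to -0.07 as TPM and was not called on recovered reads with limma voom, at 0.26 (adjusted p = 0.14). Notch1 RNA was thus found in both populations, and Notch4 RNA mostly in the endothelium. Hey1 had 2.23, 3.12 and 1.75 FPKM in bone EC, against 19.0, 16.2 and 20.01 FPKM in LSK. Hey1 differed by -2.54 ± 0.18 (SE), with an adjusted p of 1.4e-05. Hes1 had 72.2, 87.3 and 76.4 FPKM in bone EC and 133, 129.8 and 165 FPKM in LSK. Hes1 differed by -0.85 ± 0.14 (SE), with an adjusted p of 0.0011. Nrarp had 17.3, 20.2 and 18.5 FPKM in bone EC and 33.6, 28.5 and 29.6 FPKM in LSK. Nrarp differed by -0.68 ± 0.12 (SE), with an adjusted p of 0.0016. Hey1, Hes1 and Nrarp were all lower in bone EC without overlap, Hey1 by far the most. Heyl, not tested, had 0.855, 1.02 and 1.94 FPKM in bone EC and 0, 0.212 and 0.644 FPKM in LSK. As TPM the median of all genes moved by -0.66 and 22.8% of called genes were higher, against 49.0% as deposited. Neutrophil genes summed to 48480 to 48900 FPKM in bone EC and 386 to 426 FPKM in LSK, and their part in these values was not tested. Of the 41 other pathway genes 32 were tested, 13 higher and 7 lower, led by Dtx3, a member of the Deltex family of Notch regulators, at -2.31 (adjusted p = 4.5e-05), Egfl7 at 1.7 (adjusted p = 6.1e-05), the gamma-secretase subunit Aph1a at 1.55 (adjusted p = 0.00019) and the Notch inhibitor Numb at 1.48 (adjusted p = 0.00029).

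Against the mixed marrow populations, bone EC held more of nearly every gene. In bone EC against Lin-, all 10 genes were tested and 9 called higher, where 66.6% of 13255 genes were called, 35.8% higher and 30.8% lower. The 9 did not overlap between the groups, which held for 72% of all genes tested. Dll1 and Dll4 were below 1 FPKM in every Lin- library, so they passed the filter through bone EC alone and could not overlap. Dll4, with 0.570, 0.538 and 0.280 FPKM in Lin-, differed by 3.79 ± 0.16 (SE), with an adjusted p of 1.6e-06, and Hes1, with 12.6, 12.0 and 9.00 FPKM in Lin-, by 2.71 ± 0.17 (SE), with an adjusted p of 1.2e-05. Dll1 differed by 2.39 (adjusted p = 1.9e-05), Notch4 by 2.03 (adjusted p = 3.7e-05) and Notch1 by 1.49 (adjusted p = 0.00037). Nrarp differed by 1.5 (adjusted p = 8.6e-05) and Jag1 by 0.81 (adjusted p = 0.011). The Delta ligands and Hes1 set the populations apart most. Jag2 at 0.77 (adjusted p = 0.048) and Hey1 at 0.67 (adjusted p = 0.038) lay near the threshold, and without Lin- replicate 3, the library rich in erythroid RNA, Jag2 was 0.46 (adjusted p = 0.076) and Hey1 0.51 (adjusted p = 0.096). Jag2 was also lost without Lin- replicate 2 at 0.87 or any bone EC replicate at 0.64 to 0.88, and Hey1 without Lin- replicate 1 at 0.63 or bone EC replicate 1 or 2 at 0.69 and 0.51. Without bone EC replicate 1 or 2, 5 genes were called of 8 tested. Dll1 and Dll4 fell below the filter whenever a bone EC library was left out. Without a Lin- library they were tested, at 2.32 to 2.50 for Dll1 and 3.70 to 3.84 for Dll4. Heyl had 0.855, 1.02 and 1.94 FPKM in bone EC and 1.32, 0.743 and 1.98 FPKM in Lin-, which overlap, and its difference of -0.04 (adjusted p = 0.9) was 0.09 as TPM. Of all called genes 53.8% were higher as deposited; TPM moved the median by 0.18, and 61.1% of called genes were then higher.

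In bone EC against BMC, all 10 genes were tested, 8 were called higher and Notch1 lower, where 70.4% of 13194 genes were called, 35.8% higher and 34.6% lower. The 9 did not overlap, which held for 74.7% of all genes tested. Dll1 and Notch4 were below 1 FPKM in every BMC library, so they passed the filter through bone EC alone and could not overlap. Notch1 had 11.1, 10.5 and 10.03 FPKM in bone EC, against 24.6, 20.5 and 20.1 FPKM in BMC. Notch1 differed by -0.97 ± 0.12 (SE), with an adjusted p of 0.0002. Notch4 had 0.0858, 0.0542 and 0.0716 FPKM in BMC on 2 to 3 reads per library and differed by 2.94 (adjusted p = 7.9e-07) on the log2(FPKM + 1) scale. The 2 receptors thus ran in opposite directions between endothelium and whole marrow. Dll4 at 3.3 (adjusted p = 3.4e-06), Dll1 at 2.57 (adjusted p = 4.6e-06), Jag2 at 1.51 (adjusted p = 0.00012) and Jag1 at 0.72 (adjusted p = 0.014) were all higher in bone EC. So were the targets Hes1 at 2.58 (adjusted p = 2.6e-06), Nrarp at 2.02 (adjusted p = 5.4e-05) and Hey1 at 1.19 (adjusted p = 0.0057), while Heyl at 0.28 (adjusted p = 0.24) overlapped; with limma voom on recovered reads Heyl was called higher, at 0.89 (adjusted p = 0.038). Of all called genes 50.8% were higher as deposited and 68.1% as TPM, which moved the median by 0.38 and left all 10 directions as they were. Egfl7 differed by 4.87 (adjusted p = 3.0e-07) and Notch2 by -2.89 (adjusted p = 1.3e-05), with 8.25 ± 2.25 FPKM in bone EC and 67.3 ± 13.0 FPKM in BMC, so of the FPKM of all 4 Notch receptors Notch2 made up 30.6% ± 5.59 in bone EC and 75.2% ± 2.38 in BMC. The other 2 of the largest were the RBPJ coactivator Maml1 at -1.96 (adjusted p = 2.4e-05) and the glycosyltransferase Mfng at 1.83 (adjusted p = 3.1e-05). Of the 41 other pathway genes 33 were tested in each, 10 higher and 8 lower against Lin-, and 8 higher and 15 lower against BMC. Against Lin- the largest were Egfl7 at 3.04 (adjusted p = 0.00011), Mfng at 1.96 (adjusted p = 0.00031), Mib1, a ligase that ligands need, at -1.84 (adjusted p = 3.1e-05) and Notch2 at -1.77 (adjusted p = 0.00029). The libraries of Lin- and BMC came from a total RNA kit and those of bone EC and LSK from a low-input full-length kit, and the effect of the kit cannot be told apart from that of the population. Neutrophil genes summed to 48480 to 48900 FPKM in bone EC, 62.2 to 329 FPKM in Lin- and 86130 to 114800 FPKM in BMC, and their part in these values was not tested.

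Hes1 and Hey1 differed more between LSK and Lin- than in any other of the 9 comparisons. In LSK against Lin-, 6 of the 10 genes were tested and 5 called higher, where 58.9% of 13875 genes were called, 33.4% higher and 25.5% lower. The 5 did not overlap, which held for 67.1% of all genes tested. Hes1 had 133, 129.8 and 165 FPKM in LSK, against 12.6, 12.0 and 9.00 FPKM in Lin-. Its mean was 12.7 times as high and Hes1 differed by 3.56 ± 0.17 (SE), with an adjusted p of 9.0e-06. Hey1 had 19.0, 16.2 and 20.01 FPKM in LSK, against 0.997, 1.72 and 0.685 FPKM in Lin-. Hey1 differed by 3.21 ± 0.21 (SE), with an adjusted p of 3.2e-05. Nrarp, with 6.32, 6.24 and 5.28 FPKM in Lin-, differed by 2.18 (adjusted p = 2.7e-05). Hes1, Hey1 and Nrarp, the ligand Jag2 at 2.61 (adjusted p = 0.00022) and the receptor Notch1 at 0.92 (adjusted p = 0.008) stood above Lin- without overlap, and Jag1 at 0.15 (adjusted p = 0.6) did not pass. Of these genes, 5 were called when any one library was left out, Lin- replicate 3 included. Dll1, Dll4, Notch4 and Heyl were below the filter, with 2.15, 0.844 and 1.71 FPKM of Dll4 in LSK and 0.570, 0.538 and 0.280 in Lin-, and 0.487, 0.179 and 0.0511 FPKM of Notch4 in LSK and 1.29, 1.07 and 0.696 in Lin-. Heyl, by contrast, had lower values in LSK, with 0, 0.212 and 0.644 FPKM in LSK and 1.32, 0.743 and 1.98 FPKM in Lin-, without overlap, and was -0.87 (adjusted p = 0.065) in a fit without the filter. TPM moved the median by 0.84 and gave 85.7% of calls higher, against 56.7% as deposited, turned no direction of the 6 and brought Jag1 to 0.9 (adjusted p = 0.035); the kit differs between these groups. Mesenchymal stromal genes summed to 8.53 to 10.6 FPKM in LSK and 865 to 2166 FPKM in Lin-. Osteoblast genes summed to 17.55 to 25.7 FPKM in LSK and 842 to 2813 FPKM in Lin-. The part of both lists in these values was not tested. Of the other pathway genes 7 were higher and 9 lower of 32 tested, led by Mfng at 2.65 (adjusted p = 0.0001), Notch3, a receptor of mural cells, at -1.85 (adjusted p = 0.0029), Aph1a at -1.56 (adjusted p = 0.00058) and Notch2 at -1.41 (adjusted p = 0.0005).

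In Lin- against BMC the receptor Notch1 was called, lower, of 6 genes tested, where 57.5% of 12428 genes were called, 29.1% higher and 28.4% lower. Notch1 and Nrarp, 2 of the 6, did not overlap, which held for 66.1% of all genes tested. Notch1 had 4.34, 2.55 and 2.68 FPKM in Lin-, against 24.6, 20.5 and 20.1 FPKM in BMC. Notch1 differed by -2.46 ± 0.19 (SE), with an adjusted p of 9.1e-05. Nrarp at 0.52 (adjusted p = 0.068) and Jag2 at 0.74 (adjusted p = 0.06) missed the threshold; Jag2 was 1.06 (adjusted p = 0.002) without Lin- replicate 3, and Nrarp 0.7 (adjusted p = 0.029) without BMC replicate 2. Hes1, the gene that differed most between LSK and Lin-, had 12.6, 12.0 and 9.00 FPKM in Lin- and 10.5, 12.4 and 13.98 FPKM in BMC, which overlap, with -0.13 (adjusted p = 0.55); it was 0.08 as TPM and 0.01 without Lin- replicate 3. Jag1 at -0.09 (adjusted p = 0.71) was 0.05 as TPM and 0.04 without Lin- replicate 2, and Heyl stood at 0.33 (adjusted p = 0.25). Dll1, Dll4, Notch4 and Hey1 were below the filter; Notch4, at 1.02 ± 0.301 FPKM in Lin- and 0.0705 ± 0.0158 FPKM in BMC, was 0.90 (adjusted p = 0.0027) in a fit without it. Of 34 other pathway genes tested 7 were higher and 15 lower, led by Aph1b at -2.52 (adjusted p = 5.7e-05), Notch3 at 2.22 (adjusted p = 0.0017), Dtx1 at -1.92 (adjusted p = 5.5e-05) and Egfl7 at 1.83 (adjusted p = 0.0022). Lin- libraries held 865 to 2166 FPKM of 12 mesenchymal stromal genes, where BMC held 2.72 to 12.6, and their part in these values was not tested. TPM moved the median by 0.20, with 60.1% of calls higher against 50.6% as deposited.

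**Figure D4:**
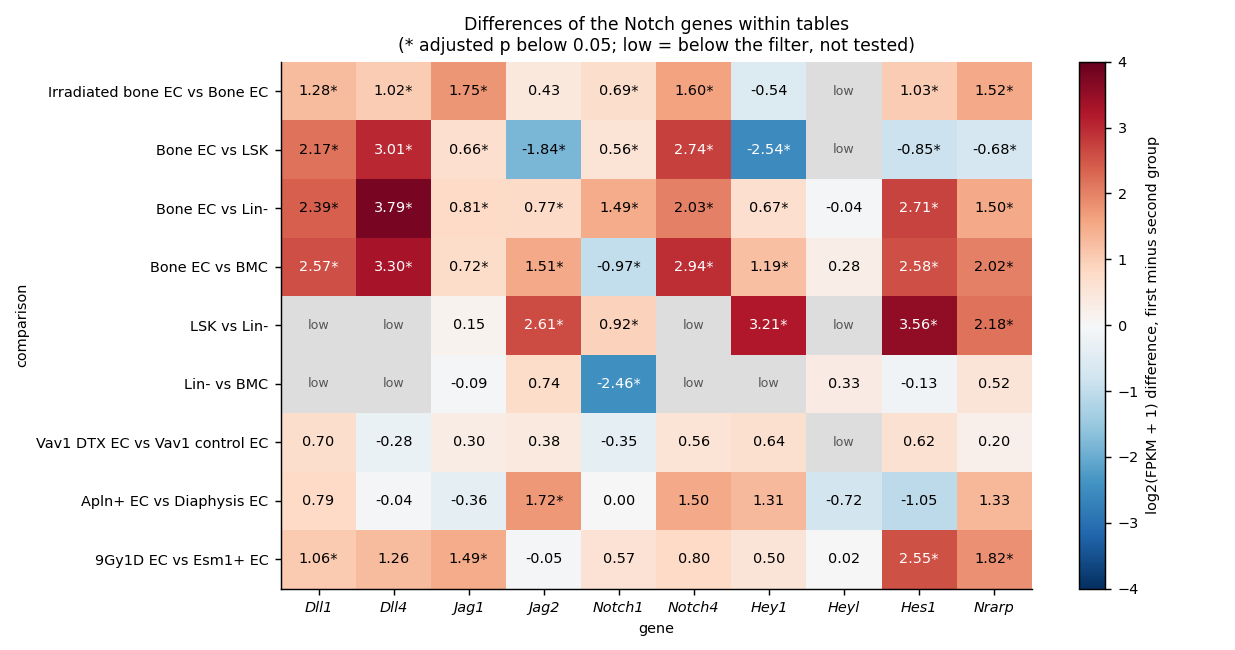
Log2 difference, first group minus second, of log2(FPKM + 1) for the 10 genes (columns) in the 9 comparisons (rows), each within 1 table and with 3 libraries per group; colour runs from blue (lower in the first group) to red (higher), a star marks an adjusted p below 0.05 (limma) and "low" a gene below the filter. The row of Vav1 DTX EC holds no star, that of Apln+ EC 1 and that of 9Gy1D EC 4; in the irradiated row Dll4, Jag2, Notch1 and Hes1 turn below 0 when scaled to pan-endothelial genes, and in the 9Gy1D row Dll1, Dll4, Notch1, Notch4, Hey1 and Heyl do.

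The comparison of Vav1 DTX EC with Vav1 control EC asks, by the names of the groups, what becomes of marrow endothelium when blood cells are lost to the toxin. None of the 10 genes was called: 9 were tested and 0 passed by limma, where 26.3% of 11664 genes were called, 11.3% higher and 15% lower; with 1 library left out in turn, 1124 (without Vav1 control replicate 1) to 4764 genes (without Vav1 DTX replicate 2) were called in place of 3065. Of the 9, 1 did not overlap between the groups, where 46.3% of all genes tested did not, and 0 of the 9 had an unadjusted p below 0.05; limma voom on the recovered reads called 0 as well. Dll1 had 6.16, 15.5 and 6.59 FPKM in Vav1 DTX EC and 4.32, 4.93 and 5.69 FPKM in Vav1 control EC, which do not overlap, with a difference of 0.7 ± 0.32 (SE), with an adjusted p of 0.16. Hes1 had 72.8, 175 and 41.2 FPKM in Vav1 DTX EC and 42.6, 49.4 and 68.0 FPKM in Vav1 control EC. Hes1 differed by 0.62 ± 0.48 (SE), with an adjusted p of 0.38. Dll4 had 13.7, 22.5 and 10.2 FPKM in Vav1 DTX EC and 17.9, 18.1 and 18.2 FPKM in Vav1 control EC. Dll4 differed by -0.28 ± 0.26 (SE), with an adjusted p of 0.46. Vav1 DTX replicate 2 was the highest of its group in all 10 genes, and its pan-endothelial sum was more than that of the other 2 together.

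Without Vav1 DTX replicate 2, Dll4 at -0.57 (adjusted p = 0.015) and Notch1 at -0.59 (adjusted p = 0.024) were called lower, on 4764 genes called in place of 3065. Without Vav1 DTX replicate 1, Hey1 was called higher at 1.04 (adjusted p = 0.0079). Notch1 had 2.57, 4.39 and 1.91 FPKM in Vav1 DTX EC and 3.34, 4.09 and 4.24 FPKM in Vav1 control EC, and Hey1 had 2.52, 7.45 and 6.65 FPKM in Vav1 DTX EC and 2.92, 2.83 and 3.01 FPKM in Vav1 control EC. Set against the pan-endothelial genes of the same library, Dll4 and Notch1 were lower in all 3 DTX libraries than in any control: Dll4 was 0.322, 0.262 and 0.241 in Vav1 DTX EC and 0.474, 0.447 and 0.396 in Vav1 control EC, and Notch1 was 0.0605, 0.0512 and 0.0451 in Vav1 DTX EC and 0.0886, 0.101 and 0.0920 in Vav1 control EC. On this scale Dll1 was higher without overlap, at 0.145, 0.181 and 0.155 in Vav1 DTX EC and 0.115, 0.122 and 0.123 in Vav1 control EC, and Nrarp and Heyl were lower, with Nrarp at 0.383, 0.392 and 0.445 in Vav1 DTX EC and 0.457, 0.465 and 0.450 in Vav1 control EC. So 5 of the 10 genes did not overlap on this scale, 1 higher and 4 lower, where 33.2% of all genes tested did not overlap, 3.41% higher and 29.8% lower. In the fit across all genes with that scaling, the log2 difference of Nrarp was -0.16, against 0.2 as deposited. The remaining values were 1.49 ± 0.513 FPKM in Vav1 DTX EC and 1.002 ± 0.151 FPKM in Vav1 control EC for Jag1, 5.90 ± 2.35 in Vav1 DTX EC and 4.09 ± 0.584 in Vav1 control EC for Jag2, and 7.04 ± 4.67 in Vav1 DTX EC and 4.03 ± 1.34 in Vav1 control EC for Notch4. Nrarp averaged 22.9 ± 9.36 FPKM in Vav1 DTX EC and 18.9 ± 1.77 FPKM in Vav1 control EC, and Heyl, not tested, 0.380 ± 0.288 FPKM in Vav1 DTX EC and 0.866 ± 0.439 FPKM in Vav1 control EC.

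Neutrophil genes made up 7.92% to 17.9% of FPKM in Vav1 DTX EC and 16.2% to 17.0% in Vav1 control EC, B lymphoid genes summed to 25.3 to 28.8 FPKM in Vav1 DTX EC and 477 to 636 FPKM in Vav1 control EC, and erythroid genes to 1197 to 2388 FPKM in Vav1 DTX EC and 31330 to 61330 FPKM in Vav1 control EC. Of the 41 other pathway genes 32 were tested, 0 higher and 4 lower: Notch2 at -1.22 (adjusted p = 0.0019), Dtx1, a Deltex gene of lymphoid cells, at -1.07 (adjusted p = 0.0017), the ligand ligase Mib2 at -0.93 (adjusted p = 0.0055) and Aph1b at -0.78 (adjusted p = 0.0098). Notch2 had 0.994 ± 0.0670 FPKM in Vav1 DTX EC and 3.68 ± 0.693 FPKM in Vav1 control EC, and Dtx1 had 0.118 ± 0.0595 FPKM in Vav1 DTX EC and 1.35 ± 0.181 FPKM in Vav1 control EC; the part of these cell types in the values was not tested. TPM moved the median by 0.23 and the share of higher calls to 68.7%, against 43.0% as deposited; the pan-endothelial scaling moved the median by -0.31 and the share to 8.6%.

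Apln+ EC, cells with a history of Apln use, were set against the endothelium of the femur shaft. Jag2 was higher in Apln+ EC, 1 call of 10 genes tested, where 7.49% of 11889 genes were called, 2.84% higher and 4.64% lower; with 1 library left out in turn, 149 (without diaphysis replicate 3) to 3835 genes (without Apln+ replicate 1) were called in place of 890. Of the 10, 5 did not overlap between the groups, where 27.8% of all genes tested did not. Jag2 had 4.65, 11.7 and 10.6 FPKM in Apln+ EC, against 1.69, 1.64 and 2.27 FPKM in diaphysis EC. Its mean was 4.81 times as high and Jag2 differed by 1.72 ± 0.33 (SE), with an adjusted p of 0.029. This call was lost when any library other than Apln+ replicate 1 was left out, with differences of 1.5 to 1.82 and adjusted p of 0.094 to 0.16, without the filter (adjusted p = 0.056) and after pan-endothelial scaling, at 1.35 (adjusted p = 0.11). Apln+ replicate 1 was the lowest of its group in 9 of the 10 genes, Notch1 excepted.

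Neutrophil genes made up 8.21% to 23.7% of FPKM in Apln+ EC, the most in replicate 1, and 8.58% to 10.2% in diaphysis EC, and their part in the result was not tested. Without Apln+ replicate 1, 7 of the 10 were called, 6 higher and 1 lower, with 3835 genes called in place of 890. Notch4 had 3.34, 13.9 and 10.3 FPKM in Apln+ EC, against 2.02, 1.62 and 3.12 FPKM in diaphysis EC. Notch4 differed by 1.5 (adjusted p = 0.13) over all libraries and 2.02 (adjusted p = 0.0006) without Apln+ replicate 1. Nrarp had 14.6, 49.6 and 50 FPKM in Apln+ EC, against 11.6, 12.6 and 13.8 FPKM in diaphysis EC. Nrarp differed by 1.33 (adjusted p = 0.17) over all libraries and 1.89 (adjusted p = 6.3e-05) without Apln+ replicate 1. Hey1 had 2.75, 10.2 and 7.49 FPKM in Apln+ EC and 1.60, 1.11 and 3.29 FPKM in diaphysis EC. Hey1 differed by 1.31 (adjusted p = 0.17) over all libraries and 1.77 (adjusted p = 0.0039) without Apln+ replicate 1. All 3 stood highest in Apln+ replicates 2 and 3. Dll1 had 6.63, 22.6 and 21.0 FPKM in Apln+ EC and 7.21, 8.62 and 8.75 FPKM in diaphysis EC. Dll1 differed by 0.79 (adjusted p = 0.38) over all libraries and 1.32 (adjusted p = 0.0004) without Apln+ replicate 1. The Delta ligands depended on that library too. Dll4 had 9.90, 28.6 and 29.7 FPKM in Apln+ EC and 19.4, 22.2 and 21.8 FPKM in diaphysis EC. Dll4 differed by -0.04 (adjusted p = 0.97) over all libraries and, with the sign turned, 0.45 (adjusted p = 0.023) without Apln+ replicate 1. Heyl had 0.413, 1.26 and 1.27 FPKM in Apln+ EC and 1.92, 2.37 and 2.29 FPKM in diaphysis EC. Heyl differed by -0.72 (adjusted p = 0.13) over all libraries and -0.49 (adjusted p = 0.035) without Apln+ replicate 1, lower without overlap. Hes1 and Heyl did not follow Hey1 and Nrarp. Hes1 had 32.3, 88.9 and 165 FPKM in Apln+ EC and 129, 183 and 184 FPKM in diaphysis EC. Hes1 differed by -1.05 (adjusted p = 0.36). Jag1 had 0.407, 1.02 and 0.991 FPKM in Apln+ EC and 1.21, 1.22 and 1.47 FPKM in diaphysis EC. Jag1 differed by -0.36 (adjusted p = 0.35), and Notch1 had 3.38, 2.79 and 2.76 FPKM in Apln+ EC and 2.91, 2.36 and 3.73 FPKM in diaphysis EC, with 0 (adjusted p = 0.99).

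Divided by the mean of the pan-endothelial genes of the same library, Dll1, Jag2, Notch4, Hey1 and Nrarp were higher in all 3 Apln+ libraries and Dll4, Jag1, Heyl and Hes1 lower, 9 of the 10 genes without overlap, where 15.8% of all genes tested did not overlap, 4.89% higher and 11% lower. Jag2 was 0.134, 0.102 and 0.0894 in Apln+ EC and 0.0362, 0.0291 and 0.0337 in diaphysis EC, and Notch4 was 0.0959, 0.122 and 0.0870 in Apln+ EC and 0.0434, 0.0287 and 0.0464 in diaphysis EC. Nrarp was 0.418, 0.434 and 0.422 in Apln+ EC and 0.250, 0.224 and 0.205 in diaphysis EC, so the 3 Apln+ libraries lay close together on this scale. Dll1 was 0.190, 0.198 and 0.177 in Apln+ EC and 0.155, 0.153 and 0.130 in diaphysis EC, and Hey1 0.0791, 0.0891 and 0.0633 in Apln+ EC and 0.0344, 0.0197 and 0.0488 in diaphysis EC. Hes1 was 0.928, 0.778 and 1.39 in Apln+ EC and 2.78, 3.25 and 2.73 in diaphysis EC, and Dll4 was 0.284, 0.250 and 0.251 in Apln+ EC and 0.417, 0.393 and 0.324 in diaphysis EC. Jag1 was 0.0117, 0.00895 and 0.00837 in Apln+ EC and 0.0260, 0.0216 and 0.0218 in diaphysis EC. On this ratio the targets lay on different sides, with Hey1 and Nrarp on one side and Hes1 and Heyl on the other, and so did the ligands, with Dll1 and Jag2 against Dll4 and Jag1. The limma fit with the same scaling called 0 of the 10 genes, with adjusted p of 0.079 to 0.93, where 434 of all 11889 genes tested were called. Notch1 overlapped: it was 0.0972, 0.0244 and 0.0233 in Apln+ EC, the first value from the library with the most neutrophil RNA, and 0.0626, 0.0418 and 0.0553 in diaphysis EC. Sinusoidal genes summed to 109 to 139.7 FPKM in Apln+ EC and 490.4 to 652 FPKM in diaphysis EC, and their part in these ratios was not tested. Of 32 other pathway genes tested, Adam10, a protease that cuts ligand-bound receptors, at 0.68 (adjusted p = 0.045) and Numb at 0.73 (adjusted p = 0.042) were higher and Psen2, a catalytic gamma-secretase subunit, at -1.33 (adjusted p = 0.0047) lower. TPM moved the median by -0.14 and the share of higher calls to 27.7%, against 38.0% as deposited, and the pan-endothelial scaling moved them by -0.37 and to 32.3%.

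In the last table, Dll1, Jag1, Hes1 and Nrarp were higher in 9Gy1D EC than in Esm1+ EC as deposited, and of these Hes1 was also called after scaling to pan-endothelial genes. All 10 genes were tested and 4 were called, all higher, where 43.7% of 11746 genes were called, 20.6% higher and 23.1% lower. Of the 10, 7 did not overlap, which held for 57.3% of all genes tested. Hes1 had 47.2, 89.1 and 79.6 FPKM in 9Gy1D EC, against 15.2, 13.5 and 6.35 FPKM in Esm1+ EC. Its mean was 6.15 times as high and Hes1 differed by 2.55 ± 0.35 (SE), with an adjusted p of 0.0014. Nrarp had 59.1, 71.7 and 68.5 FPKM in 9Gy1D EC, against 22.5, 23.8 and 10.8 FPKM in Esm1+ EC. Nrarp differed by 1.82 ± 0.28 (SE), with an adjusted p of 0.0023. Both targets stood far above every Esm1+ library. Jag1 had 3.36, 6.94 and 14.3 FPKM in 9Gy1D EC, against 1.84, 1.84 and 1.94 FPKM in Esm1+ EC. Jag1 differed by 1.49 ± 0.41 (SE), with an adjusted p of 0.023. This call was lost without any one of the Esm1+ libraries, at 1.49 to 1.51, or without 9Gy1D replicate 2, at 1.51 (adjusted p = 0.067). Dll1 had 8.47, 11.3 and 14.5 FPKM in 9Gy1D EC, against 4.95, 4.52 and 5.09 FPKM in Esm1+ EC. Dll1 differed by 1.06 ± 0.2 (SE), with an adjusted p of 0.0055. Dll4 had 26.1, 33.02 and 39.8 FPKM in 9Gy1D EC and 19.5, 19.8 and 5.43 FPKM in Esm1+ EC, without overlap, and its difference of 1.26 ± 0.45 (SE), with an adjusted p of 0.056, missed the threshold; it was called without any one Esm1+ library, at 0.7 without replicate 3 and 1.54 and 1.55 without the others.

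Jag2 was the exception among ligands, with 12.2, 13.2 and 17.9 FPKM in 9Gy1D EC and 21.0, 21.0 and 7.17 FPKM in Esm1+ EC, which overlap, and -0.05 (adjusted p = 0.93); without Esm1+ replicate 1 or 2 it was 0.19, and 0.05 without 9Gy1D replicate 1. Notch4 had 12.2, 15.2 and 20.2 FPKM in 9Gy1D EC and 10.3, 11.01 and 5.33 FPKM in Esm1+ EC. Notch4 differed by 0.8 (adjusted p = 0.059). Notch1 had 2.46, 6.13 and 6.78 FPKM in 9Gy1D EC and 3.30, 3.31 and 2.186 FPKM in Esm1+ EC. Notch1 differed by 0.57 (adjusted p = 0.2), and was called without 9Gy1D replicate 1, at 0.94 (adjusted p = 0.015). Notch4 was the larger part of the 4 receptors in both groups, 69.4% ± 5.13 in 9Gy1D EC and 64.1% ± 8.40 in Esm1+ EC. Hey1 had 10.4, 9.18 and 11.4 FPKM in 9Gy1D EC and 7.65, 8.42 and 5.25 FPKM in Esm1+ EC. Hey1 differed by 0.5 (adjusted p = 0.075), and Heyl averaged 0.873 ± 0.222 FPKM in 9Gy1D EC and 0.928 ± 0.665 FPKM in Esm1+ EC, with 0.02 (adjusted p = 0.97) and -0.28 without Esm1+ replicate 3. The ratio of Hey1 to Hes1 was 0.155 ± 0.0592 in 9Gy1D EC and 0.650 ± 0.164 in Esm1+ EC, the highest of the 11 groups. With Esm1+ replicates 1 and 2 averaged, Dll1, Dll4, Hes1 and Nrarp were called and Jag1, at 1.49 (adjusted p = 0.061), was not.

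Pan-endothelial genes summed to 2289 to 3200 FPKM in 9Gy1D EC and 608 to 1161 FPKM in Esm1+ EC, and neutrophil genes made up 7.45% to 12.0% of FPKM in 9Gy1D EC and 16.8% to 18.4% in Esm1+ EC. Sinusoidal genes summed to 620.4 to 1347 FPKM in 9Gy1D EC and 65.9 to 94.2 FPKM in Esm1+ EC, and the part of these cell types in the result was not tested. After scaling to pan-endothelial genes, which moved the median of all genes by -1.24, Hes1 at 1.13 (adjusted p = 0.0049) was called higher and Jag2 at -1.43 (adjusted p = 0.0024) and Hey1 at -0.83 (adjusted p = 0.022) lower. Of all 11746 genes tested, 8738 were called on this scale, 464 higher and 8274 lower, with a median of -1.24. Jag1 at 0.33 and Nrarp at 0.39 lost their calls, and Dll1 at -0.26, Dll4 at -0.14, Notch1 at -0.6, Notch4 at -0.56 and Heyl at -0.58 turned below 0. As TPM, which moved the median by 0.23, 7 were called, with Dll4, Notch4 and Hey1 added. TPM gave 5389 calls over all genes tested, 3450 higher and 1939 lower. Of all called genes 47.2% were higher as deposited, 64.0% as TPM and 5.3% after pan-endothelial scaling. Of 31 other pathway genes tested 7 were higher and 5 lower, led by Egfl7 at 2 (adjusted p = 0.0011), the RBPJ coactivator Maml2 at 1.27 (adjusted p = 0.0033), Hes6, a Hes relative that does not act as a usual Notch target, at -1.15 (adjusted p = 0.0013) and Aph1a at 0.95 (adjusted p = 0.0074).

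Ratios to the 18 pan-endothelial genes of the same library, the geometric mean of their FPKM + 1, also allow the endothelial groups of different tables to be placed side by side, without a test. Dll4 was the steadiest of the genes drawn, with group means of 0.262 to 0.439. Hes1 means spanned a wide range: 2.92 ± 0.284 in diaphysis EC, 1.57 ± 0.548 in Vav1 DTX EC, 1.27 ± 0.178 in Vav1 control EC, 1.14 ± 0.304 in irradiated bone EC, 1.24 ± 0.185 in bone EC, 1.03 ± 0.320 in Apln+ EC, 0.628 ± 0.109 in 9Gy1D EC and 0.277 ± 0.0401 in Esm1+ EC (SD, n = 3 each). Hey1 had 0.176 ± 0.0178 in Esm1+ EC and 0.0343 ± 0.0146 in diaphysis EC, but was lowest in irradiated bone EC, at 0.00895 ± 0.00145. Jag2 was 0.379 ± 0.0989 in Esm1+ EC and 0.129 ± 0.0243 in 9Gy1D EC, and 0.0330 to 0.109 in the other 6 groups. Jag1 was highest in irradiated bone EC, at 0.0884 ± 0.0180, and 9Gy1D EC, at 0.0707 ± 0.0450, spread over 0.0358, 0.0548 and 0.121, and lowest in Apln+ EC, at 0.00968 ± 0.00178. Notch4 was 0.212 ± 0.0162 in Esm1+ EC, 0.166 ± 0.0299 in irradiated bone EC and 0.141 ± 0.0278 in 9Gy1D EC and lowest in diaphysis EC, at 0.0395 ± 0.00946. Of the genes not drawn, Nrarp was highest in 9Gy1D EC, at 0.593 ± 0.0325, and lowest in diaphysis EC, at 0.226 ± 0.0228, Dll1 was highest in Apln+ EC, at 0.189 ± 0.0106, and lowest in 9Gy1D EC, at 0.101 ± 0.0193, and Notch1 was highest in bone EC, at 0.168 ± 0.0279, and lowest in 9Gy1D EC, at 0.0441 ± 0.0162. Between irradiated bone EC and bone EC 6 of the 10 did not overlap on this scale, Notch4 and Nrarp higher and Jag2, Notch1, Hey1 and Heyl lower, where 77.4% of all genes tested did not, 4.24% higher and 73.2% lower. Between 9Gy1D EC and Esm1+ EC 6 of the 10 did not, Hes1 and Nrarp higher and Jag2, Notch1, Notch4 and Hey1 lower, where 81% of all genes tested did not, 4.8% higher and 76.2% lower. The ratio takes the marker genes as a fixed yardstick, and RNA of blood cells in the same library is not removed by it, that of Notch1 and Notch2 included. Whole marrow also held Jag1, at 1.49 FPKM where Apln+ EC held 0.807, and Hes1, at 12.3 FPKM where Esm1+ EC held 11.7. The part of such RNA in the ratios was not tested.

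**Figure D5:**
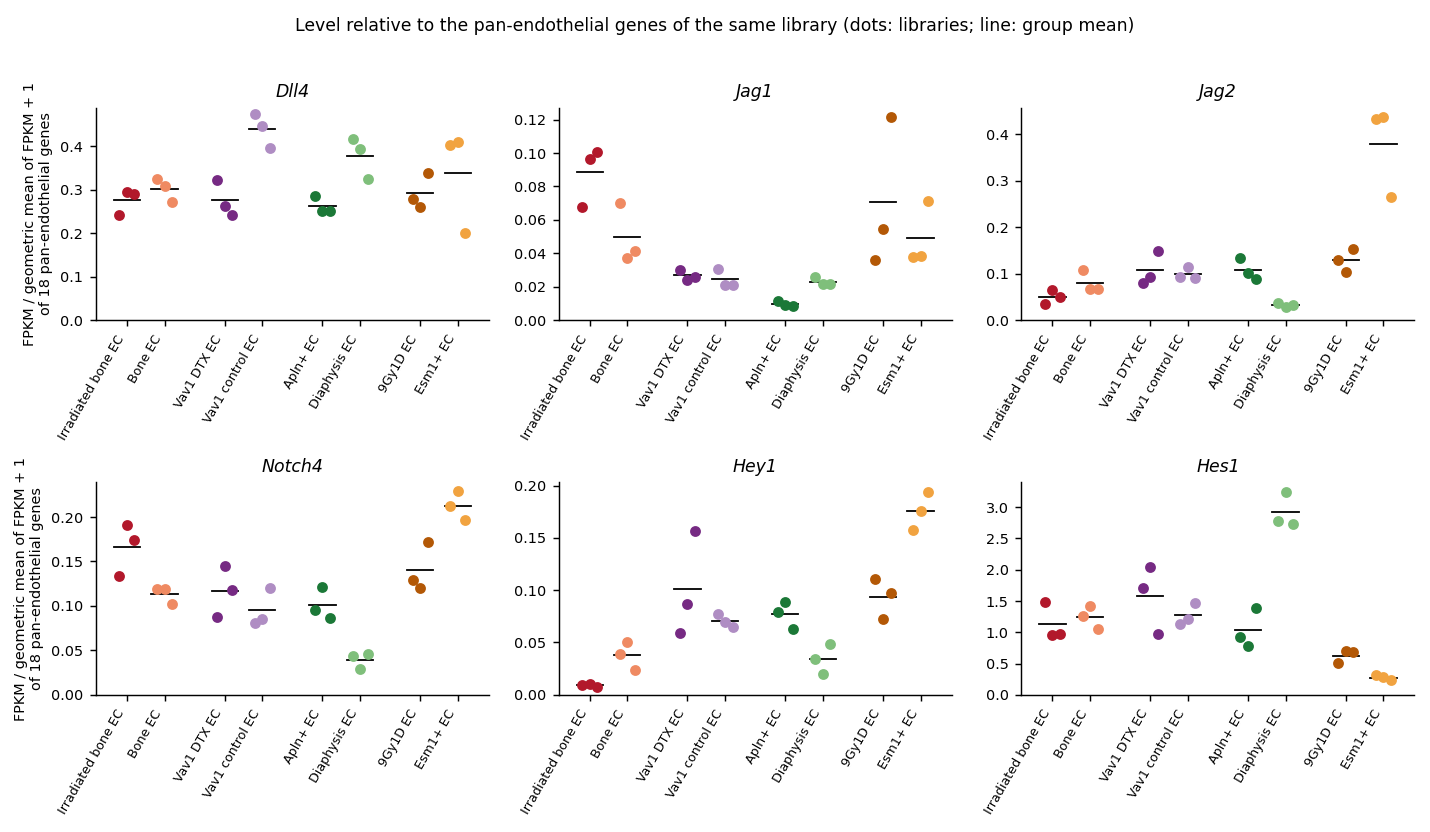
FPKM of 6 of the genes divided by the geometric mean of FPKM + 1 of 18 pan-endothelial genes in the same library (vertical axis, ratio, linear, a scale of its own per gene) for the 24 endothelial libraries (dots) with group means (lines); gaps part the tables. Esm1+ EC lie highest for Jag2, Notch4 and Hey1 and lowest for Hes1, diaphysis EC lie highest for Hes1, and irradiated bone EC lie lowest for Hey1.

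Irradiation was thus applied in 2 tables with different partners, and the values side by side were these. Jag1 differed by 1.75 for irradiated bone EC minus bone EC and by 1.49 for 9Gy1D EC minus Esm1+ EC, Nrarp by 1.52 in the first pair and 1.82 in the second. Dll1 differed by 1.28 in the first and 1.06 in the second, and Hes1 by 1.03 in the first and 2.55 in the second. Each of these 4 was called higher in both comparisons as deposited, as were 13.2% of the 11221 genes tested in both. Scaled to pan-endothelial genes none of the 4 was called in both: Dll1 had 0.19 in the first and -0.26 in the second, and Nrarp 0.37 in the first and 0.39 in the second. On that scale Jag1 had 0.74, called, in the first and 0.33 in the second, and Hes1 -0.15 in the first and 1.13, called, in the second. Hey1 differed by -0.54 in the first and 0.5 in the second, and was called in neither. The difference between the comparisons was not tested, and they do not share samples.

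The genes whose log2(FPKM + 1) was most like that of each Notch gene over the 15 libraries of the first table, by Pearson's r among 9650 other genes, are given as a description; the 15 libraries fall into 5 groups of 3, so r rests mostly on differences between groups. Notch4 was most like Stab2 (r = 0.997), Flt4 (0.997) and Abcc9 (0.996). Stab2 and Flt4 are genes of sinusoidal endothelium, and Abcc9 stands in the mural marker list. Stab2 stood at 298 ± 109.8 FPKM in irradiated bone EC and 43.6 ± 4.59 FPKM in bone EC. Flt4 stood at 208 ± 79.4 FPKM in irradiated bone EC and 32.9 ± 6.89 FPKM in bone EC. Abcc9 stood at 171.5 ± 64.9 FPKM in irradiated bone EC and 36.1 ± 5.31 FPKM in bone EC. Dll4 was most like Dnase1l3 (0.993), Pea15a (0.991) and Cmtm3 (0.991), and Dll1 like Fez2 (0.991), Rgl1 (0.989) and Dbn1 (0.989). Jag1 was most like Adam9 (0.970), Igtp (0.970) and Irgm2 (0.966), the last 2 being interferon-inducible GTPases, and Igtp stood at 163 ± 42.4 FPKM in irradiated bone EC and 21.5 ± 3.65 FPKM in bone EC. Jag2 was most like Tmem66 (0.949), Pcca (0.949) and Cd34 (0.946), a surface protein of blood progenitors and endothelium, with 349 ± 9.81 FPKM in LSK. Notch1 was most like Antxr2 (0.982), Map3k3 (0.975) and Cerk (0.974). Of the targets, Hes1 was most like Arf4 (0.992), Mfng (0.989) and Hibadh (0.984), Nrarp like Cyp2j6 (0.985), Rcn2 (0.981) and Plscr3 (0.981), and Hey1 like Tnip3 (0.962), Tmem191c (0.960) and Cyp20a1 (0.950). Heyl was most like Ctse (0.876), Rhag (0.871) and Kel (0.860), the last 2 being erythroid membrane proteins. The summed erythroid list averaged 26380 FPKM in Lin-, 32570 in bone EC, 13610 in BMC, 2663 in LSK and 507 in irradiated bone EC. Heyl averaged 1.35 FPKM in Lin-, 1.27 in bone EC, 0.833 in BMC, 0.2855 in LSK and 0.165 in irradiated bone EC. The order was the same but for Lin- and bone EC. Single libraries could depart from it. The list was 14030 FPKM in BMC replicate 1, where Heyl had 0.721 FPKM. It was 1582 FPKM in Lin- replicate 1, where Heyl had 1.32 FPKM. The part of erythroid RNA in Heyl was not tested. Rhag stood at 2.07 ± 1.37 FPKM in irradiated bone EC and 36.0 ± 4.64 FPKM in bone EC.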

How the data were processed

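RNA sequencing values of the 33 libraries were deposited as FPKM in 4 tables of 38926 rows each, of which 38899 gene names stand in all 4 (27 names turned into dates in some tables were left out); every column was matched to a sample by its label. Per the labels' protocols, Lin- and BMC libraries were made with a stranded TruSeq total RNA kit and the others with SMART-Seq v4 and Nextera XT. The submitters' processing notes list the genome build mm10 and, without a role, the tools HTSeq (0.6.1), TopHat2 (2.1.1), DESeq2 (1.18.1) and bcl2fastq (2.19.1.403); replicates were not pooled by the authors. Reads were recovered from the FPKM step of 1 read, and were whole (within 0.005) at the GENCODE exon length for 18244 of 38899 genes. For other genes with reads, among them Jag2, Hey1 and Nrarp, a length was searched that made them whole. Whole reads for 100% of genes thus follow by construction and are no check of the method. These reads served for depth and for limma voom.

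Each comparison was fitted within its table by limma 3.58.1 (R 4.3.3, empirical Bayes with a trend, two-sided) on log2(FPKM + 1), on genes that reached 1 FPKM in 3 or more of its 6 libraries, with Benjamini-Hochberg adjustment over all genes tested and a threshold of 0.05. An exact permutation test of 3 against 3 cannot go below p = 0.1 and was not used. The log2 scale with a pseudocount understates changes of low genes. Intervals and floors cover counting error only. P-values measure the spread between these libraries, which may be technical. The fit was tested on simulated data with known changes. All 10 genes were described, and of 41 other pathway genes those with the largest differences among the called (at most 4 per comparison). The genes, marker lists and tests were chosen with earlier results of these data known. Alternatives were the pseudocount (0.1 or 5), the filter, median-of-ratios scaling, TPM, scaling to 18 pan-endothelial genes, fitting a whole table at once, a block for replicate numbers, no trend, limma voom, and leaving out each library; averaging Esm1+ replicates 1 and 2 was chosen after the data were seen. Gene positions are from GENCODE vM21 (GRCm38) and promoters from RefSeq (GRCm38.p6).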

Additional observations from a re-analysis of the deposited data

How the results depend on the processing

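Over all alternatives, 1122 of 1227 values kept their direction and their side of the threshold, 45 lost and 34 gained a call, and 33 turned sign, of which 5 also lost and 2 also gained a call. Scaling to pan-endothelial genes left 3 of the 10 genes called in irradiated bone EC against bone EC and 0 in Apln+ EC against diaphysis EC (limma, as does the fit without a filter, 0), and turned Dll4 (-0.13), Jag2 (-0.59), Notch1 (-0.42) and Hes1 (-0.15) in the first, Nrarp (-0.16) in Vav1 DTX EC against Vav1 control EC, and Dll1 (-0.26), Dll4 (-0.14), Notch1 (-0.60), Notch4 (-0.56), Hey1 (-0.83) and Heyl (-0.58) in 9Gy1D EC against Esm1+ EC; the scaling lowers all genes there by construction. A minimum mean of 5 FPKM tests fewer genes and left 4 called in bone EC against Lin- and 4 against BMC. Lin- against BMC had 2 called without a filter, 2 as TPM, 2 with limma voom and 3 with all libraries of the table, where the spread is shared. 9Gy1D EC against Esm1+ EC had 7 called as TPM and 7 with limma voom. Small differences turned sign: Notch1 in bone EC against LSK as TPM (-0.07), Heyl in bone EC against Lin- as TPM (0.09) and voom (0.13), Jag1 (0.05 and 0.02) and Hes1 (0.08 and 0.03) in Lin- against BMC as TPM and voom, Heyl in 9Gy1D EC against Esm1+ EC with a pseudocount of 5 (-0.01), and Jag2 there as TPM (0.20), voom (0.07) and with Esm1+ replicates 1 and 2 averaged (0.19); the cause was not tested.

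With each library left out in turn, the number of the 10 genes called was 7 to 8 for irradiated bone EC against bone EC, 7 to 9 for bone EC against LSK, 5 to 8 against Lin- and 7 to 9 against BMC, 5 in every fit for LSK against Lin-, 1 to 2 for Lin- against BMC, 0 to 2 for Vav1 DTX EC, 0 to 7 for Apln+ EC and 3 to 5 for 9Gy1D EC. Where a bone EC library was left out, the filter dropped Notch4 against LSK, Dll1 and Dll4 against Lin-, and Dll1 and Notch4 against BMC. Fits with 2 libraries in an arm share the spread of the other arm. Differences that turned sign ranged over -0.24 to 0.15 for Heyl in bone EC against Lin-, -0.24 to 0.04 for Jag1 and -0.23 to 0.01 for Hes1 in Lin- against BMC, -0.10 to 0.40 for Nrarp in Vav1 DTX EC, -0.30 to 0.45 for Dll4 in Apln+ EC, and -0.28 to 0.11 for Heyl and -0.53 to 0.19 for Jag2 in 9Gy1D EC. Whether same-numbered libraries pair is not stated in the labels and was not tested. The correlations of their deviations ran from -0.22 to 0.33. The highest, in Apln+ EC against diaphysis EC, lay above the 0.28 of the other pairs there. A replicate block changed no call of the 10 genes in any comparison. It gave 4402 genes called in place of 5463 in irradiated bone EC and 2123 in place of 3065 in Vav1 DTX EC. The genes called overall moved by more than 1.5 times with 1 library left out (1124 to 4764 in place of 3065 in Vav1 DTX EC, 149 to 3835 in place of 890 in Apln+ EC, 4940 to 5076 in place of 8175 in LSK against Lin- without any one LSK library, and 3417 in place of 5133 in 9Gy1D EC without Esm1+ replicate 2), with a minimum mean of 5 FPKM (5083 in place of 8608 in bone EC against LSK, 5624 of 8822 against Lin-, 6069 of 9287 against BMC, 4675 of 8175 in LSK against Lin- and 445 of 890 in Apln+ EC) and with pan-endothelial scaling (9506 in place of 5463 in irradiated bone EC, 1506 of 3065 in Vav1 DTX EC, 434 of 890 in Apln+ EC and 8738 of 5133 in 9Gy1D EC). Depth limits several values: all 3 libraries of a group had 21 reads or fewer for Dll1 in BMC and LSK, Dll4 in LSK and Lin-, Notch4 in BMC and LSK, Hey1 in BMC, bone EC and irradiated bone EC, and Heyl in LSK and irradiated bone EC.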
